A study of Mus musculus with 2 samples.

Results

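SRCAP, the ATPase of a chromatin remodeler that replaces H2A in nucleosomes with its variant H2A.Z, was mapped by CUT&Tag in mouse embryonic stem cells, and 309 of the 15653 regions called lay at the promoters of noncoding genes alone. They were chosen by position. Peaks of both replicates were pooled, overlapping peaks were merged, and mitochondrial peaks were dropped. A region was kept if it reached into the 1000 bp before or the 500 bp after a transcription start site (TSS) of a long noncoding gene of GENCODE release 21 and lay over 2 kb from every TSS of a protein-coding gene. Starts of genes of other types, such as pseudogenes and small RNAs, were not excluded. Of the 309 regions, 126 were found in replicate 1, out of 6141 regions of that replicate, and 256 in replicate 2, out of 12946.

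Both samples came from SYAT cells, a line derived from CGR8 embryonic stem cells in which both Srcap alleles carry YPet, a fluorescent protein, and an auxin-inducible degron at the 3′ end, and which stably express the plant receptor OsTir1. They were kept in serum and LIF with auxinole, an inhibitor that limits basal degradation of the tagged protein, which is the control condition. In CUT&Tag an antibody, here one against GFP that recognises YPet, directs the Tn5 transposase to the tagged protein in 200000 cells per sample. There is 1 group of 2 replicates, so no conditions were compared. Cells given auxin were not analysed here, nor was any control library. Each replicate was called separately. The lists give a score per peak and no read number, so the depth behind each value is unknown. Each sample also carried 10000 Drosophila nuclei as a spike-in, and the stated methods downsample libraries by their Drosophila reads before peak calling, but the lists do not show whether this was done. The score, 10 times the −log10 q-value of the peak caller cut to a whole number, had a minimum of 13 in both lists and reached 4910 in replicate 1 and 6452 in replicate 2. Because q-values move with depth, a difference in score between the replicates is not read as a difference in occupancy. The lists hold no expression values, so the cell type was not checked against its markers.

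Long noncoding genes are transcribed by RNA polymerase II like protein-coding genes, and their promoters carry nucleosome-depleted starts flanked by positioned nucleosomes, the usual setting of H2A.Z. GENCODE sorts them by position. A lincRNA is classed as lying between coding genes, and an antisense gene as overlapping another gene on the opposite strand. A processed transcript is a spliced RNA without an open reading frame that is placed in no narrower class. Many noncoding genes start at the promoter of a coding neighbour, and the distance rule removed those starts, as far as GENCODE annotates coding transcripts.

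The sequences under the regions with the highest ranks in both replicates, and under 2 regions at noncoding genes with known roles in epigenetic silencing, are printed first because later paragraphs refer to them. Each is 300 bases of GRCm38 (mm10) around the midpoint of a region, 5′ to 3′ on the strand of the noncoding gene. Capitals mark every match to 12 motifs searched on both strands: CCAAT for NF-Y, then CCGGAAG for ETS factors, GGGCGGG for SP/KLF factors, CGCATGCG for NRF1, CTCGCGAG for the ZBTB33 type, AAGATGGCG for YY1, CACGTG for the E-box, TATAAA for the TATA box, TGACGTCA for CREB/ATF, ATGCAAAT for the octamer of POU factors, TCAAGGTCA for ESRRB, and CATTGTT for SOX factors. A reverse-strand match is printed as it reads on the gene strand, so that CCAAT then appears as ATTGG. No motif contains another.
Gm15287: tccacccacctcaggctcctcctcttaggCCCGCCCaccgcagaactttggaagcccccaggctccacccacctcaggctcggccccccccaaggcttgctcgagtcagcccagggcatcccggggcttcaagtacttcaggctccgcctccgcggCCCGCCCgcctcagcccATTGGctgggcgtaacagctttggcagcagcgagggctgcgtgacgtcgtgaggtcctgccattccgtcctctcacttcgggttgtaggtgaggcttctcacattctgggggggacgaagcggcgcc
1700012D14Rik: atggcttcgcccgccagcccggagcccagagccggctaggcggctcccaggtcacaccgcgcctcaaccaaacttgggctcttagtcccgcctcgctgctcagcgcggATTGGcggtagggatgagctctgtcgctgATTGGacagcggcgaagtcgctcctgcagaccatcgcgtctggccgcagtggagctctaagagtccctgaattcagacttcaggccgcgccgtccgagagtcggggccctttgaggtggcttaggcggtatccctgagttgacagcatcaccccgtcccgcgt
Gm21814: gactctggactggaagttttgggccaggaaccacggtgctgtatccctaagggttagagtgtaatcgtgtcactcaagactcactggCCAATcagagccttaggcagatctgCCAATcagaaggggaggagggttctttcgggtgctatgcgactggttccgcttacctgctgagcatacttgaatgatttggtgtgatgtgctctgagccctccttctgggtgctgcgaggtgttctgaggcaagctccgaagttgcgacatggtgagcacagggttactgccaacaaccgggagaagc
Gm31793: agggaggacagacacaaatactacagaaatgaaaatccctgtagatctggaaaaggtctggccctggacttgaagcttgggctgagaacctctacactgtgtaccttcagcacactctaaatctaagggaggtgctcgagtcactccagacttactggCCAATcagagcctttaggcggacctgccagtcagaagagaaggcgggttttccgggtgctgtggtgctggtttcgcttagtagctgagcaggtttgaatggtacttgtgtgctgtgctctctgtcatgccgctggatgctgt
Gm20939: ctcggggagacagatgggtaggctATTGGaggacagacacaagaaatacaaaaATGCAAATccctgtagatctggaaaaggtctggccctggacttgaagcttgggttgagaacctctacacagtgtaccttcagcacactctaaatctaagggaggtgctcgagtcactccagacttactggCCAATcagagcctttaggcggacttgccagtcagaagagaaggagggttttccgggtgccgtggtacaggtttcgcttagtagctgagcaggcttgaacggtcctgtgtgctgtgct
Kcnq1ot1: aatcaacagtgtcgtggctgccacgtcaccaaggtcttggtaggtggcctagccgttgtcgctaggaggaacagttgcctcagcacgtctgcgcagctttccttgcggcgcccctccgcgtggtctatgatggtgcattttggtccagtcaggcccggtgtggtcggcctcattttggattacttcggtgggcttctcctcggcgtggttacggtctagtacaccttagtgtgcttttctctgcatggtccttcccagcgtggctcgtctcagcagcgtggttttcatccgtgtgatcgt
Tsix: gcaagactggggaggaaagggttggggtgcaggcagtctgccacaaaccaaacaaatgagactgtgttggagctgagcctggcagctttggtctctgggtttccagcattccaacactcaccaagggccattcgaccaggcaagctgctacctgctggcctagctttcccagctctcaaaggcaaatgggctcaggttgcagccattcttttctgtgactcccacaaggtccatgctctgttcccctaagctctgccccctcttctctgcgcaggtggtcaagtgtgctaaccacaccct

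The 7 stretches lie, in that order, at chr13:111725395-111725694 on the plus strand, chr7:111122587-111122886 on the minus strand, chr6:149565931-149566230, chr10:130542115-130542414 and chr17:94864653-94864952, all 3 on the plus strand, chr7:143296313-143296612 on the minus strand, and chrX:103447370-103447669 on the plus strand. All but the Tsix stretch contain the annotated TSS of their gene. NF-Y matches were present in the 5 highest-ranked stretches and in neither of the stretches at Kcnq1ot1 and Tsix, whose 300 bases held none of the 12 motifs. In the 500 bp windows used for the counts given later, Kcnq1ot1 had an NF-Y match and Tsix an SP/KLF match. The NF-Y letters were in 47.2% of such windows over all merged regions. The stretches of Gm21814, Gm31793 and Gm20939 share sequence around a CCAAT, so their matches are not independent. GC content of the printed bases ran from 51.3% at Gm31793 and Gm20939 to 67% at Gm15287, and CpG dinucleotides from 2 at Tsix to 28 at 1700012D14Rik.

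Regions at noncoding promoters were found in both replicates about as often as SRCAP regions in general. Of the 309, 73 (23.6%, 95% Wilson interval 19.2 to 28.7) were found in both replicates, beside 21.9% of all merged regions. A further 53 were found in replicate 1 only and 183 in replicate 2 only. Of the 126 regions found in replicate 1, 57.9% (49.2 to 66.2) were also found in replicate 2, beside 55.9% (54.7 to 57.2) of all regions of replicate 1. Regions at protein-coding promoters stood higher, with 31% (29.9 to 32.1) of 7103 found in both, as did the 745 regions at noncoding promoters within 2 kb of a coding TSS, with 33.4% (30.1 to 36.9). Those 2 classes are not separate, since 709 of the 745 regions are also among the 7103. Regions in neither kind of window stood lower, with 14.1% (13.4 to 14.9) of 8205. The intervals cover counting error only, regions of a library are not replicates of a condition, and no test was made between the classes, which differ in position by construction.

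**Figure D1:**
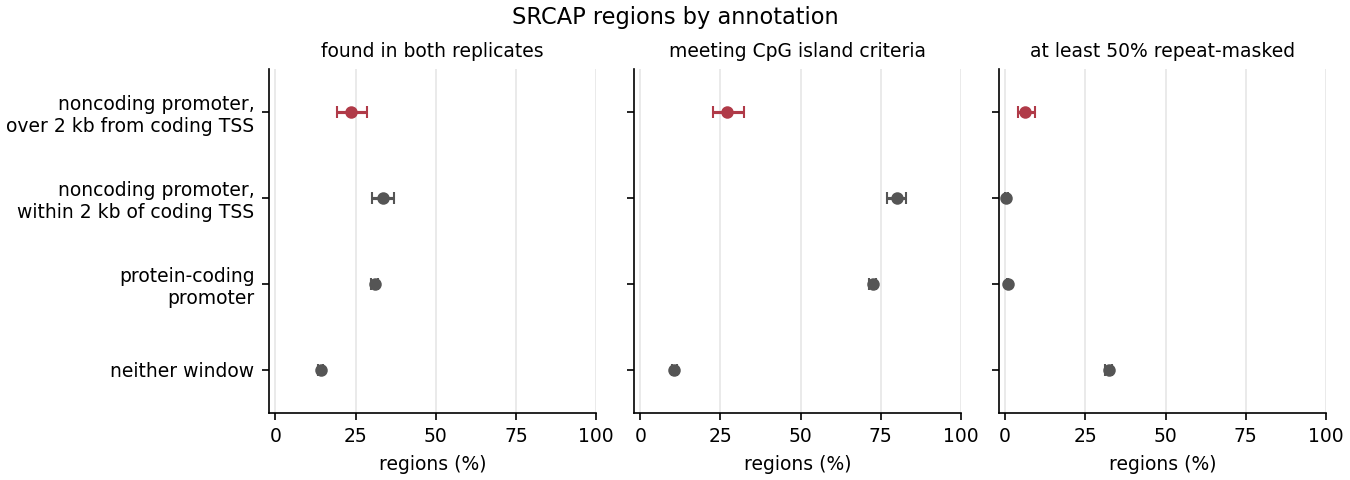
Share of merged SRCAP regions (%) in each of 4 annotation classes (the noncoding class near coding TSSs and the coding class share 709 regions) that were found in both replicates, met CpG island criteria, or were at least 50% repeat-masked. Points are shares and bars 95% Wilson intervals (most are narrower than the point). The 309 regions at noncoding promoters alone (red) lay between coding promoters and regions in neither window on each measure: 23.6% were found in both replicates, 27.2% met CpG island criteria and 6.15% were at least 50% repeat-masked.

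Scores at these promoters were modest. The median score was 31 in replicate 1 (n = 126) and 37 in replicate 2 (n = 256), beside 32 and 36 over all merged regions and 35 and 43 over regions at coding promoters. The highest scores, 257 and 258, both belonged to Gm15287, whereas coding promoters reached the highest scores of both lists. Among the 73 regions found in both replicates, the scores ranked alike to a moderate degree (Spearman's rho 0.51, Pearson's r of log10 scores 0.55, across regions of the same libraries, which are not independent replicates), and 58 of the 73 had the higher score in replicate 2. Over all 3434 regions found in both, rho was 0.42, r was 0.52, and 2510 had the higher score in replicate 2. Regions found in both were wider, with a median of 538 bp against 297 bp for those of replicate 1 only and 354 bp for those of replicate 2 only. Merging 2 peaks can only widen a region. Taken by themselves, the peaks of the regions found in both had a median of 367 bp in replicate 1 and 457 bp in replicate 2.

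**Figure D2:**
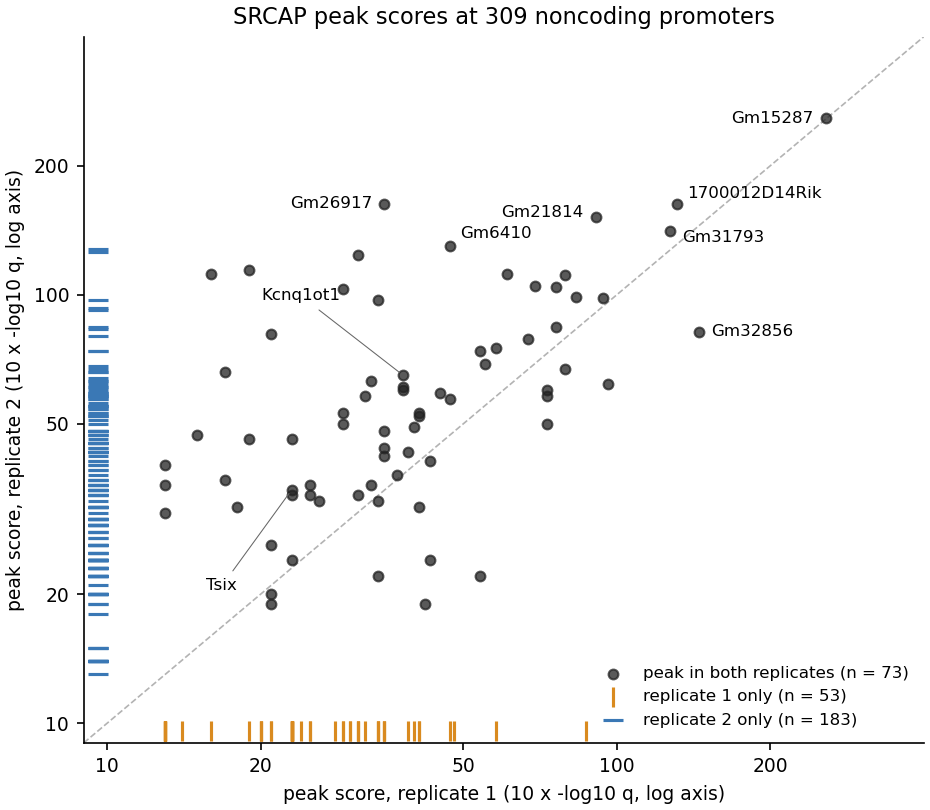
Peak score in replicate 1 (x axis) against replicate 2 (y axis), both 10 × −log10 q on log axes, for the 309 SRCAP regions at noncoding promoters. Each dot is 1 of the 73 regions found in both replicates, ticks along the axes are the 53 and 183 regions found in 1 replicate, and the dashed line marks equal scores. Gm15287 stands alone at the top with 257 and 258, and 58 dots lie above the line.

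Gm15287, an antisense gene on chromosome 13, carried the strongest region (chr13:111725159-111725931, 773 bp), with a score of 257 in replicate 1 and 258 in replicate 2. Its midpoint lay 28 bp downstream of the annotated TSS and 24374 bp separated it from the nearest coding TSS, that of Mier3. The region also reached into the promoter window of Gm15488, a unitary pseudogene. The 500 bp around the midpoint had 66.4% GC, and the printed sequence shows 2 SP/KLF matches and 1 NF-Y match in reverse orientation. 1700012D14Rik, a processed transcript on chromosome 7, followed with 131 and 163, in a region of 1043 bp that spanned its TSS and lay 39186 bp from the start of Eif4g2, a translation factor gene. Its printed sequence holds 2 NF-Y matches, both in reverse orientation.

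Several of the next regions had partly identical sequence. Gm31793 on chromosome 10 scored 127 and 141, Gm20939 on chromosome 17 scored 79 and 111, and Gm32856 on chromosome 8 scored 145 and 82. All 3 were found in both replicates, and Gm32856 was the only one of the 15 regions with the best ranks whose score was higher in replicate 1. The 500 bp windows of Gm31793 and Gm32856 shared an identical run of 185 bp, and each shared a run of 83 bp with Gm20939, both runs including a CCAAT. Gm21814 on chromosome 6, with scores of 91 and 152, shared 34 bp with Gm20939 and with Gm32856 and 19 bp with Gm31793. The shared run around the CCAAT followed by cagagcct can be read in the 3 printed sequences of Gm21814, Gm31793 and Gm20939.

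Such copies bear on how reads can be placed, because the stated methods keep unique alignments, and their part in these scores was not tested. Of the words of 31 bases in the Gm32856 region, 52.9% occurred elsewhere in the genome, against 38.8% for Gm31793, 22.3% for Gm20939 and 3.29% for Gm21814. RefSeq lists Gm21814, Gm20939 and Gm32856 as protein-coding genes with a coding transcript start inside the region, so for these the noncoding label rests on GENCODE alone.

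Most of the other regions among the 15 lay in sequence with few or no copies. Gm26901, a lincRNA on chromosome 1, scored 94 and 98 with its midpoint 7 bp upstream of the TSS and 236861 bp from the nearest coding TSS. Gm37494 on chromosome 7 scored 61 and 112 at one start and, in replicate 2 alone, 43 at a second start, and RefSeq places the coding transcript Gm33989 at both. The region of 1700028E10Rik, with 76 and 84, was centred on the TSS itself and had the highest CpG ratio of the 15, 0.979, where the ratio is the number of CpG dinucleotides observed over that expected from the C and G content of 500 bp.

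Gm6410 scored 47 and 130, Gm5091 scored 67 and 79, and A230028O05Rik scored 58 and 75, all 3 lincRNAs over 50 kb from a coding TSS. 4933436E23Rik scored 69 and 105 at a position where RefSeq, unlike GENCODE, starts a transcript of Crb1, a cell polarity gene of the retina. Gm5784, with 83 and 99, lay in sequence of which 86.3% of words occurred elsewhere, and RefSeq calls the gene protein-coding. Gm31518, which RefSeq calls a pseudogene, scored 76 and 104 in 500 bp without a single CpG, the lowest CpG ratio among the 15.

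Regions found in 1 replicate had lower scores on the whole, but not all were weak. Among those of replicate 2 only, the highest scores were 128 at 1700020I14Rik, 126 at Gm48170, 97 at 9330159M07Rik, 93 at Gm5907 and 92 at Celrr, while the median of the 183 was 33. Of these 5, Gm48170 and 9330159M07Rik lay in sequence of which 59.5% and 62.7% of words occurred elsewhere. Among those of replicate 1 only, the highest scores were 87 at 4930519A11Rik, a lincRNA 35735 bp from Mycn, then 58 at C920006O11Rik, 48 at Gm15247, 47 at Gm48684 and 41 at both Gm40557 and 4930553P18Rik. The median of those 53 was 23, and of the words in the Gm15247 region 92.5% occurred elsewhere. A missing call in the other replicate says that no peak passed its threshold there, not that the protein was absent.

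Within the window used to select them, most regions sat close to the annotated start. The selection itself limits this distance, and no expected share was computed. The midpoint lay within 250 bp of the nearest noncoding TSS in 186 regions (60.2%, 54.6 to 65.5), with a median distance of 194 bp, and 155 regions (50.2%, 44.6 to 55.7) contained a TSS. Midpoints were upstream of the TSS in 170 and downstream in 138, in a window that reaches farther upstream than downstream. Of the 73 regions found in both replicates, 47 contained a TSS (64.4%, 52.9 to 74.4), against 23 of 53 found in replicate 1 only and 85 of 183 found in replicate 2 only. The regions found in both were also the wider ones, and the part of width in this count was not tested.

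**Figure D3:**
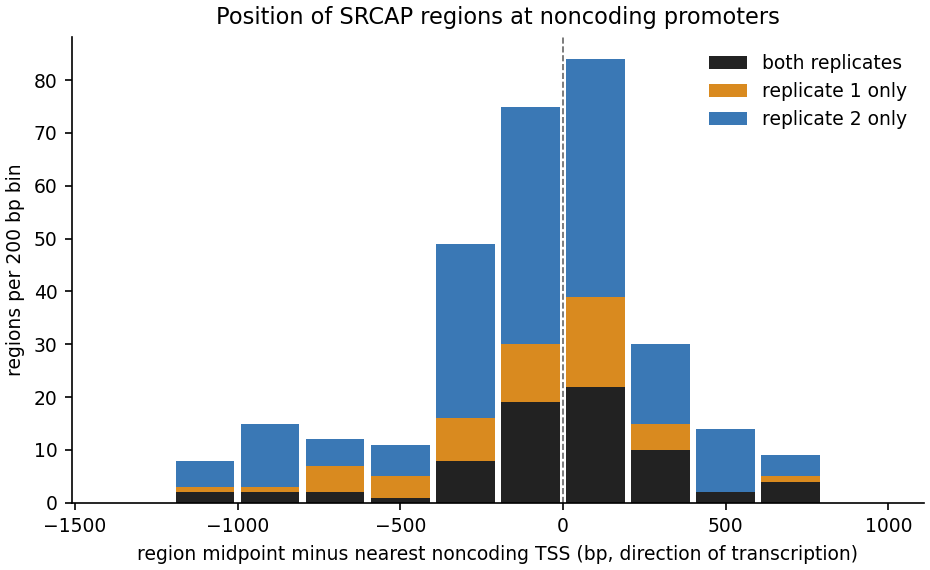
Number of SRCAP regions (y axis) per 200 bp bin of the distance from the nearest noncoding TSS to the region midpoint (x axis, bp, positive in the direction of transcription), stacked by the replicates in which a region was found. The tallest bins are the 2 next to the TSS, with 75 regions just upstream and 84 just downstream. The bins end at 1000 bp, so the regions of Gm49166 at 1050 bp and of Gm36816 at 1040 bp are not shown.

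By gene type, 205 of the 309 regions were at lincRNAs, 58 at antisense genes, 45 at processed transcripts and 1 at a sense-intronic gene. Bidirectional-promoter genes, which start beside a coding gene by definition, gave no region. The share found in both replicates was 24.4% (19 to 30.7) for lincRNAs, 19% (10.9 to 30.9) for antisense genes and 26.7% (16 to 41.0) for processed transcripts, and these intervals overlap. Per gene the types differed more. Of the genes with at least 1 TSS over 2 kb from every coding TSS, 47 of 500 processed transcripts (9.40%, 7.14 to 12.3) had a region, beside 215 of 5408 lincRNAs (3.98%, 3.49 to 4.53) and 59 of 1760 antisense genes (3.35%, 2.61 to 4.30). In replicate 1 the shares were 3.60%, 1.66% and 1.42%, in replicate 2 they were 8.40%, 3.37% and 2.67%, and in both 2.60%, 1.05% and 0.739%. Over all 5 types this was 322 of 7960 genes (4.05%), with 83 (1.04%) in both replicates. Of 21938 protein-coding genes, 34.0% had a promoter region in either replicate and 12.1% in both. Regions at processed transcripts had a median CpG ratio of 0.585, beside 0.416 at lincRNAs and 0.431 at antisense genes. The part of CpG content and of the number of annotated starts per gene in the shares per type was not tested.

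The surroundings varied with type. A coding gene body enclosed 65 of the regions, 42 of them at antisense genes and 11 at lincRNAs. In 58 the noncoding gene ran opposite to its host. The median gap to the nearest coding TSS was 32015 bp, 241 regions were over 10 kb away and 62 over 100 kb. A spliced gene model was annotated for the genes of 292 regions. Of the 309 regions, 23 (7.44%) also reached into the promoter window of a gene of another GENCODE type, such as a pseudogene or small RNA. RefSeq, which annotates the same assembly independently, carried the gene symbol for 196 regions and called 170 of these genes long noncoding, 15 protein-coding and 10 pseudogenes. It placed a coding transcript start within 2 kb of 27 regions, 10 of which were among the 73 found in both replicates. Without those 27, 63 of 282 regions were found in both.

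Noncoding starts with a region were richer in CpG than those without. Around the starts of noncoding genes over 2 kb from coding TSSs, the median CpG ratio was 0.446 at the 299 starts with a region and 0.211 at the 7467 without, and median GC content 55.0% and 46.8%. CpG island criteria (over 50% GC and a ratio over 0.6 in 500 bp) were met by 94 of the 299 (31.4%, 26.4 to 36.9) and by 203 of the 7467 (2.72%, 2.37 to 3.11). Read the other way, 31.6% (26.6 to 37.1) of the 297 noncoding starts that met the criteria had a region, beside 2.74% (2.40 to 3.14) of the 7469 that did not. Starts of protein-coding genes showed the same order at a higher level, with 50.2% (49.3 to 51.2) of 10413 and 10.9% (10.3 to 11.4) of 11517. These are shares with a region in either replicate and follow the longer list: for starts that met the criteria they were 12.8% noncoding and 23.9% coding in replicate 1, 29.3% and 45.3% in replicate 2, and 10.4% and 18.9% in both.

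The gap between noncoding and coding starts remained at matched CpG ratio in all but the lowest bin. Below a ratio of 0.2, 1.14% of noncoding and 1.40% of coding starts had a region, with overlapping intervals. From 0.4 to 0.6 the shares were 8.46% (6.77 to 10.5) and 29.6% (27.9 to 31.4), from 0.6 to 0.8 they were 17.4% (13.3 to 22.5) and 49.2% (47.8 to 50.7), and at 0.8 and over they were 35.5% (28.4 to 43.4) and 50.1% (48.8 to 51.3). In that last bin they were 13.2% and 23.0% in replicate 1, 32.9% and 45.3% in replicate 2, and 10.5% and 18.2% in both. Neighbouring starts can share a region, expression was not measured here, and no test was made.

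**Figure D4:**
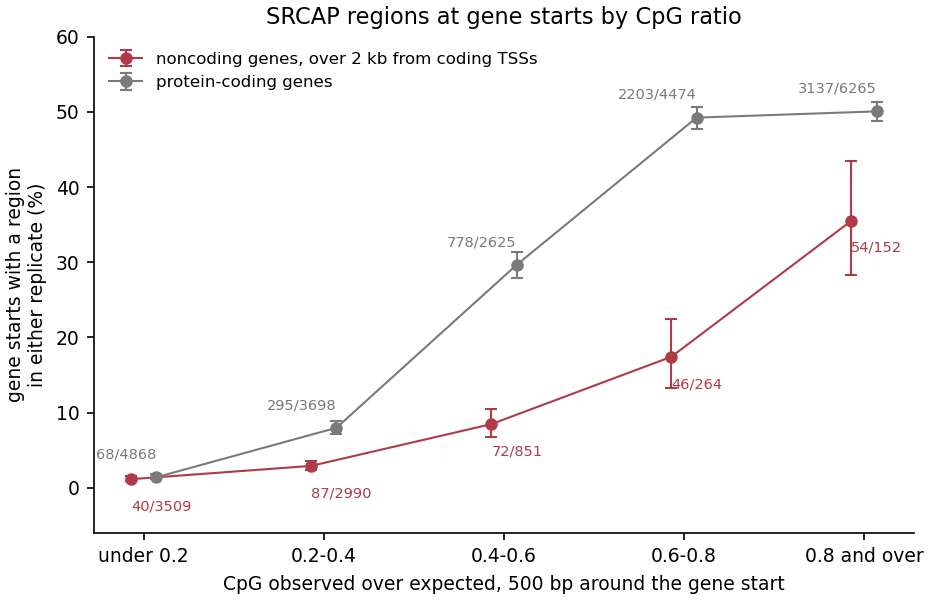
Share of gene starts with an SRCAP region in either replicate (y axis, %) by CpG ratio of the 500 bp around the start (x axis), for noncoding genes over 2 kb from coding TSSs (red) and protein-coding genes (grey). Points are shares with 95% Wilson intervals, and labels give starts with a region over all starts in the bin. From the lowest to the highest bin the share goes from 1.14% to 35.5% for noncoding starts and from 1.40% to 50.1% for coding starts, which level off from a ratio of 0.6.

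Base composition and repeats placed the 309 regions between coding promoters and the rest. Their median GC content was 55.8%, beside 63% at coding promoters and 53.0% in neither window, and their median CpG ratio was 0.430, beside 0.736 and 0.316. CpG island criteria were met by 84 (27.2%, 22.5 to 32.4), beside 39.1% (38.3 to 39.9) of all merged regions and 72.4% of regions at coding promoters. Of these 84, 29 were found in both replicates (34.5%, 25.2 to 45.2), against 44 of the other 225 (19.6%, 14.9 to 25.2). Repeat-masked sequence made up at least 50% of 19 regions (6.15%), beside 0.760% at coding promoters and 32.3% in neither window. Found in both among the 19 were C330004P14Rik with scores of 23 and 34, Gm49166 with 73 and 58, and Gm16233 with 21 and 81.

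Motif matches followed the same order for some factors and not for others. The SP/KLF letters, typical of CpG-rich promoters, were in 28.8% of the 500 bp windows of the 309 regions and in 49.3% of the 73 found in both, beside 33.6% of all merged regions and 54.1% of those at coding promoters. The NF-Y letters were in 52.4% and 63%, beside 47.2% and 47.7%, although noncoding starts with and without a region held them alike, at 54.5% and 53.8%. ETS letters were in 16.2%, beside 14.1% of all merged regions and 19.8% of those at coding promoters, and were held by 15.4% of noncoding starts with a region and 3.90% of those without. For SP/KLF that pair was 29.4% and 6.03%, and for the TATA box it was 12.0% and 26.9%. Starts with and without a region also differed in median GC content, at 55.0% and 46.8%. The part of base composition in these motif counts was not tested.

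The octamer and SOX letters, bound by pluripotency factors such as OCT4 and SOX2, were in 4.21% and 8.41% of the 309 windows. They were in 2.44% and 4.63% of all merged regions and in 1.63% and 2.75% of those at coding promoters, beside 4.01% and 7.69% of noncoding starts with a region and 3.91% and 8.10% of those without. The YY1 letters were in 5 of the 309 windows (1.62%) and in none of the 73 found in both. They were in 6.36% of all merged regions and 3.48% of those at coding promoters. Among the 84 windows that met CpG island criteria, SP/KLF letters were in 57.1% and SOX letters in 2.38%, against 18.2% and 10.7% in the other 225. Of the remaining motifs, the E-box letters were in 31 of the 309 windows, those of CREB/ATF in 5, NRF1 in 4, and the ZBTB33 type and ESRRB in 1 each, beside 10.7%, 1.85%, 2.05%, 1.13% and 0.780% of all merged regions. At least 1 of the 12 was in 79.0% of the 309 windows, beside 80.4% of all merged regions and 86.0% of those at coding promoters. A match describes letters in a window and not a bound factor.

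Noncoding genes with known functions are given by list, beside 4.05% of all eligible noncoding genes with a region and 1.04% with one in both replicates. From a list of 13 X-inactivation and imprinted noncoding genes, all with an eligible TSS, Kcnq1ot1 and Tsix had one, in both replicates. Kcnq1ot1, the imprinted antisense RNA that silences neighbours of Kcnq1, scored 38 and 65 in a region of 669 bp that contained its TSS inside the Kcnq1 gene. Tsix, the antisense transcript that restrains Xist, scored 23 and 35 in a region of 350 bp centred 202 bp upstream of one of its annotated starts. Xist, Airn, H19, Meg3, Jpx, Ftx, Firre, Mirg, Rian and Peg13 had no region, and that of Nespas lay within 2 kb of a coding TSS.

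Small nucleolar RNA hosts, whose introns release the guide RNAs of ribosomal RNA modification, were represented by 3 of 10 eligible genes, each in replicate 2 only. Snhg8 scored 83, Snhg6 scored 56 and Snhg17 scored 28, and their windows had CpG ratios of 0.919, 0.909 and 0.347 in that order. Regions at Gas5 and Snhg1 were within 2 kb of a coding TSS and are not counted. Dleu2, the host of a microRNA cluster on chromosome 14, shared a region with Gm27017 that scored 48 in replicate 2 only. It was the single gene counted among 7 eligible abundant or widely expressed noncoding genes. Malat1, Neat1, Miat and Pvt1 had no region, and that of Tug1 was within 2 kb of a coding TSS.

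Pluripotency-associated Platr transcripts were represented by 1 of 25 eligible genes, Platr11, with a score of 39 in replicate 2 only and 58.0% repeat-masked bases. No region was found at any of 9 eligible microRNA hosts, a list of symbols that start with Mir and end in hg. Hosts with other symbols, such as Dleu2, are not in that list. Nor was one found at 10 eligible stem cell and lineage genes, among them Lncenc1, Sox2ot, Rmst, Hotair and Fendrr. Genes listed as opposite-strand by a symbol ending in os or as gave 8 of 165, and none in both replicates. The symbol rule also takes in Gas5, a small nucleolar RNA host, which is not among the 8. Fbxl12os (68), Tspan32os (48), Lrrc75aos2 (47), Parvaos (24), Ube2uos (23) and Kdm6bos (15) had their scores in replicate 2, and Sox5os2 (34) and Rab10os (14) in replicate 1. The counts per list are small.

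Chromosome 17 carried 32 of the 309 regions, 12 of them found in both replicates, and 34 of its 314 eligible noncoding genes (10.8%) had a region. On the other chromosomes with a region the share ran from 1.94% on chromosome 3 to 6.49% on chromosome 19. Chromosome Y had 551 eligible genes and no region. Of the 32 regions, 3 lay together at an 18S ribosomal RNA-related sequence, which RefSeq names Rn18s-rs5 (chr17:39846354-39848202). The region of Gm26917 was the widest of all, 2282 bp (chr17:39843112-39845393), scored 35 and 163 and ended 961 bp before it. That of Gm42418 scored 16 and 112 and overlapped it by 312 bp, and that of AY036118 scored 61 in replicate 2 only and lay inside it. Of the words of 31 bases in the regions of Gm26917, Gm42418 and AY036118, 1.51%, 13.3% and 20.1% occurred elsewhere. Copies were counted on the assembled chromosomes only, so copies absent from the assembly are not in these shares.

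**Figure D5:**
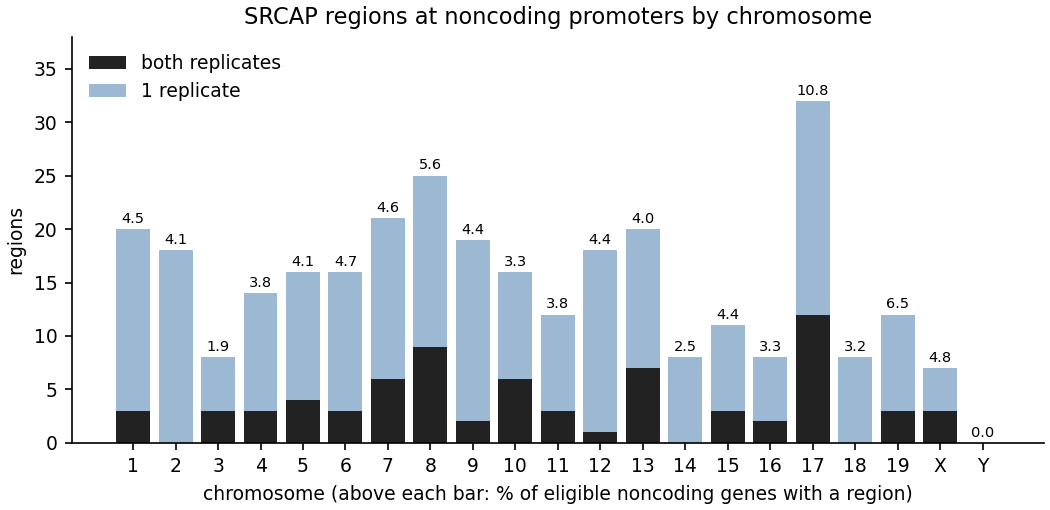
Number of SRCAP regions at noncoding promoters (y axis) on each chromosome (x axis), split by whether a region was found in both replicates (black) or in 1 (blue). Numbers above the bars are the percentage of eligible noncoding genes with a region, which is 10.8 on chromosome 17 and at most 6.5 elsewhere.

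Sequence copies tied 21 of the regions into 7 groups, in which windows shared at least 50 words of 20 bases. The largest group held 5 regions: E430024I08Rik (32 in replicate 2), Gm47467 (35 in replicate 2), Gm47469 (30 in replicate 1) and Gm46430 (73 and 60) within chr13:74462466-74617993, and Gm1976 (35 and 42) on chromosome 17. Another held Gm31793, Gm20939 and Gm32856, the 3 described beside the printed sequences, and a further one BC002059, Gm5165 and Gm6712 on chromosome 17, of which Gm5165 was found in both replicates with 29 and 103. In the group of Gm49166 and 2 regions at Gm36816, all bases were repeat-masked. Regions of a group share sequence and are not independent of each other. Over all 309, 22 regions (7.12%) had at least 50% of their words of 31 bases elsewhere, beside 13.3% of all merged regions, and 221 had none.

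The 2 kb limit separated regions with neighbouring distances. Just inside it were Tspan32os, 2008 bp from the TSS of Tspan32, Gm26672, at 2066 bp from Pcdhga12 with a score of 26 in replicate 2, and 4933436E23Rik, at 2139 bp from Crb1. Just outside it were Gm39318, at 1997 bp from Tirap with 40 in replicate 2, Gm16499, at 1993 bp from Tril with 17 in replicate 1, and Gm12976, at 1820 bp from C77080 with 22 in replicate 2.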

How the data were processed

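CUT&Tag peaks of SRCAP-YPet from SYAT cells in the control condition (2 replicates) were analysed. For each replicate the authors deposited a list of peaks with a score, a whole number of at least 13. The submitters' processing notes name STAR, Picard and MACS2, the builds mm10 and dm6, and no versions. The stated methods, 1 section for ChIP-seq and CUT&Tag, keep unique alignments and chromosomes 1 to 19, X and Y, downsample by Drosophila reads and call peaks on the result. The reporting form of the study gives a MACS2 call on paired-end fragments against an input library, under ChIP-seq, and names the GFP antibody in the same section. Whether that control was used for these peaks is not given in the sources used here. Each list also holds 6 mitochondrial peaks, which that chromosome filter would remove and which were left out here.

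Peaks were merged if they overlapped by at least 1 bp, and TSSs of all transcripts were taken from GENCODE M21. GC content, CpG ratio and motifs were measured in 500 bp of GRCm38 around each midpoint, and soft-masking and words of 31 bases over the region. Python 3.11.15, numpy 2.4.6, scipy 1.17.1 and matplotlib 3.10.9 were used, and the merging and selection code was tested on simulated regions. No significance test was made: there is 1 group, and regions are not replicates. The reporting form describes replicates of the study as independently cultured and treated cells. Named regions are the 15 with the best lower rank in both lists, the 5 highest of each replicate alone (with ties), all at listed genes and 3 on each side of the 2 kb limit. Regions at ribosomal and copied sequence, and C330004P14Rik and Gm16233, were named after their values were seen. The members and lists were chosen with earlier results of these data known.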

Additional observations from a re-analysis of the deposited data

How the results depend on the processing

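Of 108 values recomputed under 16 alternatives, 85 moved by less than the spread used here (1.5 times for the count, the Wilson interval for shares, the SD between replicates for medians). With lists cut to equal length there were 203 regions, with medians of 386 bp, 57 in replicate 2 and 57.4% GC. With scores of at least 50 there were 88, with medians of 488.5 bp, scores of 76 and 63 and 57.6% GC, and 62.5% contained a TSS. With a window from 2000 bp upstream the median width was 362.5 bp and 44.0% contained a TSS. Requiring the TSS inside the region left 155, of which 30.3% were found in both replicates, with medians of 447 bp and 43.5 in replicate 2, and 100% contained a TSS by construction. Leaving out each replicate in turn gave 126 to 255 regions, median widths of 323 to 362 bp, GC of 56.2 to 57.6% and 44.4 to 50.2% with a TSS. The lower counts are those without replicate 2, and no share found in both can be had from 1 list. In 2 alternatives added after seeing the data, leaving out regions within 2 kb of a RefSeq coding TSS gave a median of 362.5 bp, and leaving out the 22 regions with at least 50% of words elsewhere changed no value beyond the spread. No paired analysis was possible because both samples belong to the same group. Depth is unknown, so how many regions either library could have shown is too.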
